A study of Mus musculus with 6 samples.

Results

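Chemokines are small secreted proteins that direct the movement of leukocytes, and chemokine receptors are the G protein-coupled receptors that read them. The family was taken by symbol: the Ccl, Cxcl, Cx3cl1 and Xcl1 ligands, the Ccr, Cxcr, Cx3cr1 and Xcr1 receptors, the atypical receptors Ackr1 to Ackr4, and *Ccrl2*. This gave 61 of the 55401 genes in the count files, 38 ligands and 23 receptors, of which 47 (26 ligands and 21 receptors) passed the filter on low counts.

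RNA-seq of subcutaneous white adipose tissue (scWAT) was compared between 3 control mice, named YT-FF, and 3 mice named YT-AKO. All 6 animals were males aged 8 weeks. YT-AKO mice carried floxed alleles of *Yap* and *Taz* with the *Adipoq* Cre transgene, whose promoter is active in mature adipocytes. Controls were labelled WT, and by the methods of the study they carried the same floxed alleles without Cre. The comparison asks how the chemokine system of the tissue differed when these transcriptional coactivators were deleted in fat cells, which are 1 of several cell types in the tissue that was sequenced.

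A ligand is released by resident cells, binds matrix and endothelium, and draws cells that carry its receptor. CC ligands mainly recruit monocytes, macrophages, eosinophils and lymphocytes, and CXC ligands neutrophils and lymphocytes. In adipose tissue, macrophages are a main source and a main target of CC ligands. Atypical receptors bind chemokines without the usual G protein signal and remove or transport them.

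Total counts were 17740987 to 21838493 per library, and the family took 0.107% to 0.140% of them, 18953 to 27894 counts. The library labelled YT-AKO 2 stood apart. Its counts differed from those of the other YT-AKO libraries by a chi-square of 145 and 161 per degree of freedom, against 29.1 between those other libraries and 11.9 to 32.6 within YT-FF. Skeletal muscle markers were highest in YT-AKO 1, where the 6 summed to 3029 CPM, against 124 to 443 in the other libraries. *Acta1* was called higher in YT-AKO (log2 fold change 2.67). YT-AKO 1 was also the highest library for *Ccl6*, *Ccl9*, *Ccl2*, *Ccl12*, *Cxcl10* and *Ackr1*, among others, and the part of muscle in these values was not tested. *Yap1* was lower in the libraries labelled YT-AKO (log2 fold change -0.98), but *Wwtr1*, which encodes TAZ, was higher (0.89), with edgeR adjusted p = 0.0179 and 0.0220. The *Wwtr1* value goes against the label. These counts sum every exon of a gene, not the floxed ones alone, and come from all cell types. Adipocyte markers were high in each library (summed CPM 10590 to 31650). *Ms4a1* of B cells (75.0 to 202 CPM) and *Glycam1* of lymph node venules (41.4 to 80.2 CPM) were also present in every library. Directions below are therefore those between the labelled groups.

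Of the 47 tested members, 5 were higher in YT-AKO, against 12.6% of all 16807 genes tested, and 3 were lower, against 9.01% (edgeR quasi-likelihood test, Benjamini-Hochberg adjusted p under 0.05). The family as a whole was therefore called no more often than the background. The higher members were the ligands *Ccl6*, *Ccl9*, *Ccl7*, *Ccl11* and *Ccl24*, and the lower ones the receptors *Cxcr5*, *Ccr9* and *Cx3cr1*. The groups did not overlap in CPM for 7 members on the higher side and 10 on the lower side, beside 25.7% and 25.8% of all genes tested. Without YT-FF 1 edgeR called 0 members and 0 of all 17183 genes. Without YT-FF 2 it called 0 members and, of all 17140 genes, 0 higher and 2 lower. These 2 fits thus leave almost no call for any gene. An unadjusted edgeR p under 0.05 was reached there by 12 and 14 members, beside 4665 and 4507 of all genes. The counts were 2 higher and 1 lower without YT-FF 3 (of all 17458 genes, 704 and 528), 4 and 5 without YT-AKO 2 (16.9% and 14.0% of its genes), and 8 and 1 without YT-AKO 3 (of all 17467 genes, 1784 and 895). DESeq2 called 9 higher and 3 lower, against 15.0% and 11.7% of its genes, and limma-voom called 3 and 2, where 1986 and 1647 of all genes were called. The length correction, described below, left 2 higher and 1 lower, against 9.92% and 4.3%.

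Scaling changed which members were called. CPM here uses TMM factors, which hold the median of all genes near 0 (-0.02). Scaled as TPM, which divides by gene length and by the sum over all genes, the median log2 fold change of all genes was -0.66, and 0 members were higher and 9 lower, against 2.5% and 24.4% of all genes. With library totals alone that median was -0.34, and 2 were higher and 6 lower, against 1137 and 2828 of all 16807 genes. Differences are therefore read relative to the middle of all genes.

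**Figure D1:**
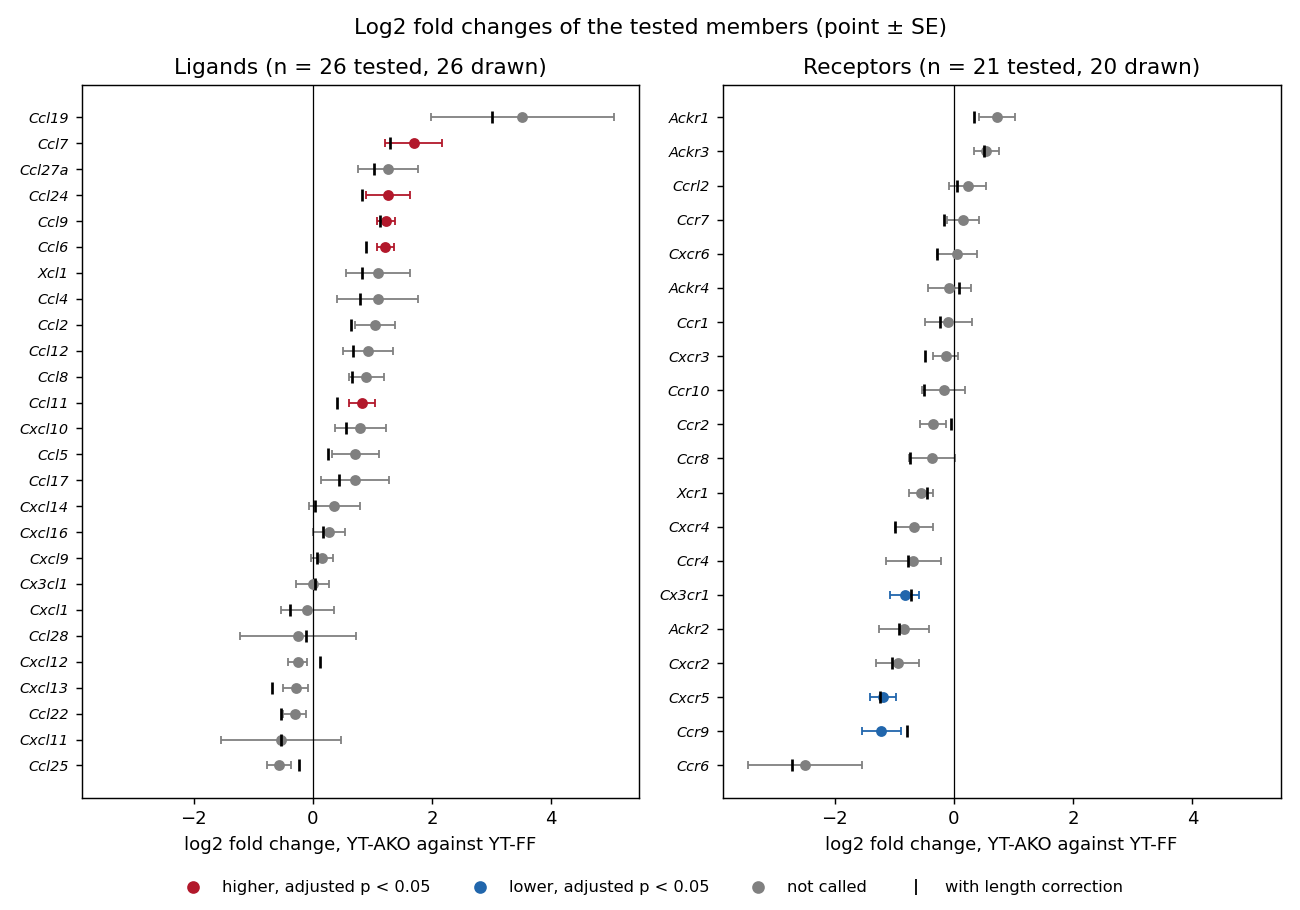
Log2 fold changes (YT-AKO against YT-FF, x axis) of the tested ligands and receptors (n = 26 and 21, with 1 receptor not drawn), with standard errors and, as black ticks, the values after a correction for gene length. The 5 red points (higher) are ligands and the 3 blue points (lower) are receptors, and 18 of 26 ligands but 5 of 21 receptors lie above 0.

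Ligands and receptors leaned in different directions. The median log2 fold change was 0.76 over the tested ligands (18 above 0 and 8 below) and -0.35 over the receptors (5 above and 16 below), beside -0.02 over all genes, of which 49.0% lay above 0 and 51.0% below. The CC ligands had a median of 0.99, with 13 of 16 above 0 and 5 called. The CXC ligands had a median of 0.04, and 0 of 8 passed the test, also with DESeq2 and limma-voom, or at an unadjusted p under 0.05. The medians are descriptions without a test.

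Ligands and receptors also differed in gene length, and both were shorter than the median of all genes. The tested ligands had a median exon length of 1811 bases and the receptors 3048, against 3888 over all genes tested, and log2 fold change fell with length across genes (Spearman's rho -0.376, and -0.283 without YT-AKO 2; genes of the same 6 libraries, not independent points). After the length correction, the medians went from 0.76 to 0.42 for ligands and from -0.35 to -0.48 for receptors, beside 0.07 for all genes. Without YT-AKO 2 they were 0.15 and -0.25, beside -0.01. The lean of ligands over receptors kept its order in each of these fits, but the ligands' median was small without that library.

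**Figure D2:**
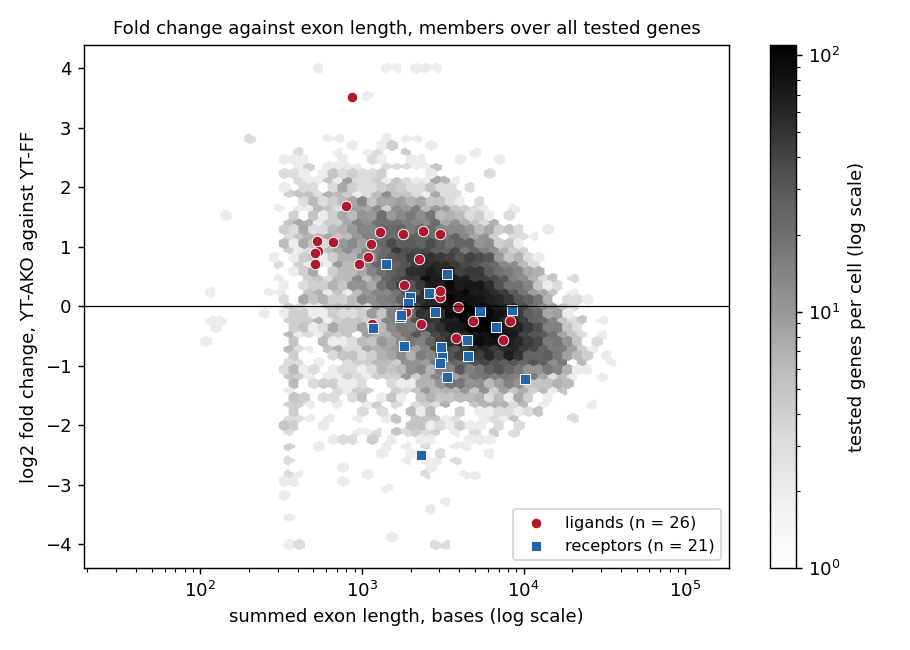
Log2 fold change (YT-AKO against YT-FF, values beyond 4 in either direction drawn at 4) against summed exon length in bases on a log axis, with grey cells for all 16807 tested genes, red circles for ligands and blue squares for receptors. Ligands (median length 1811 bases) lie mostly above 0. Receptors (3048) are longer than the ligands but shorter than the median of all tested genes (3888), and lie mostly below 0.

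*Ccl6* and *Ccl9* were the steadiest of the ligands. Both are mouse CC chemokines made by macrophages and other myeloid cells, and both bind CCR1. They are neighbours on chromosome 11 (GRCm38): *Ccl6* at 83587882 to 83593087 and *Ccl9* at 83572919 to 83578636, both on the minus strand, with 9246 bases between them. Their promoter windows (RefSeq, GRCm38.p6) are printed because these members moved together. Each runs from 250 bases before the start site to 50 after it, chr11:83593038-83593337 for *Ccl6* and chr11:83578587-83578886 for *Ccl9*. Capitals mark runs of at least 10 bases that the other window also holds:
Ccl6: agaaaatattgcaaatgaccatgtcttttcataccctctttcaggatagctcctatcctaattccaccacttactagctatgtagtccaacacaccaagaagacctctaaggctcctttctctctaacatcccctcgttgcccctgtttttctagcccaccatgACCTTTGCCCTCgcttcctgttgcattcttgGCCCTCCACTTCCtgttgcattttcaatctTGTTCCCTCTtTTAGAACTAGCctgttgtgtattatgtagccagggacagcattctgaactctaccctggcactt
Ccl9: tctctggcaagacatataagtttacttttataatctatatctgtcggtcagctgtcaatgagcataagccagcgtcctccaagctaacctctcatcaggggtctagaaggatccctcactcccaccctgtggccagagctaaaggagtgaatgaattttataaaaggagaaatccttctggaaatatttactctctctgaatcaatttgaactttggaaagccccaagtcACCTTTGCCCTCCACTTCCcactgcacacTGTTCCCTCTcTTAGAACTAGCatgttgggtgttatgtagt

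The shared runs were 10 to 13 bases long, and a pair of them that lie apart in the *Ccl6* window overlap in the *Ccl9* window. The *Ccl9* window also held a match to the NF-kB motif, ggaaagcccc, on the opposite strand at -35 to -26 from its start site. The *Ccl6* window held none of the 6 motifs searched on both strands, which were this motif and a wider form of it (every match to the first also matches the second), GGAATG of TEAD factors, the interferon-stimulated response element, TTGCNNAA of C/EBP factors and GAGGAA of PU.1.

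*Ccl6* stood at 42.7, 49.6 and 47.8 CPM in YT-FF libraries 1 to 3 and at 117, 101 and 108 in the libraries labelled YT-AKO 1 to 3. The groups did not overlap. The means were 46.7 ± 3.60 and 109 ± 8.25 CPM (SD, n = 3 each), a 2.33-fold difference (log2 fold change 1.22, SE 0.148, edgeR adjusted p = 0.0153). *Ccl9* gave nearly the same picture, with 29.9, 33.4 and 35.8 CPM in YT-FF and 82.2, 73.4 and 76.2 in YT-AKO. Its log2 fold change was 1.23 (SE 0.147, edgeR adjusted p = 0.0146). Both calls held in 13 of 18 alternative fits, among them the length correction (0.89 and 1.13). The log2 fold changes were much the same without YT-FF 1 (1.16 for both) and without YT-FF 2 (1.26 and 1.23), the fits in which almost no gene was called (edgeR adjusted p = 0.110 and 0.111). The calls were also lost with TPM scaling, where the log2 fold changes were 0.58 and 0.59 (edgeR adjusted p = 0.125 and 0.112).

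Per length, *Ccl6* was the fourth most abundant ligand and *Ccl9* ranked 9. In TPM the YT-AKO 2 library, at 98.3 for *Ccl6* and 42.3 for *Ccl9*, lay within the YT-FF ranges of 91.4 to 109 and 37.8 to 43.4. The other YT-AKO libraries lay above them, at 164 and 182 for *Ccl6* and 68.0 and 75.3 for *Ccl9*. *Ccr1*, which encodes their receptor, had 4.69, 5.14 and 3.30 CPM in YT-FF and 6.16, 3.83 and 2.31 in YT-AKO (log2 fold change -0.09, edgeR adjusted p = 0.873).

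Of 15 macrophage markers, 11 were not called and 4 were higher, beside 12.6% of all genes. These 4 were *C1qa*, *C1qb* and *C1qc*, which encode complement subunits, and *Fcgr1*, an Fc receptor. *Adgre1* and *Csf1r*, the defining macrophage genes, had log2 fold changes of 0.36 and 0.16 (edgeR adjusted p = 0.294 and 0.504). The summed level of the list was 907 to 967 CPM in YT-FF and 1377 to 1793 in YT-AKO. As a percentage of that sum, *Ccl6* was 4.46, 5.13 and 5.27 in YT-FF and 8.13, 5.62 and 7.85 in YT-AKO, and *Ccl9* 3.13, 3.46 and 3.95 against 5.70, 4.10 and 5.53. Both ratios were higher in each YT-AKO library, by 1.45-fold and 1.46-fold between the group means, with YT-AKO 2 the nearest to the controls. Most of the rise of the list lay in the 3 C1q genes, which summed to 268 to 283 CPM in YT-FF and 624 to 1048 in YT-AKO, while the other 12 markers summed to 624 to 699 and 733 to 818. Over those 12 alone, a division made after the values were seen, the ratios of *Ccl6* and *Ccl9* were each 2.03-fold higher in YT-AKO. In bulk tissue, fewer cells of a type and less RNA per cell cannot be told apart, and the same holds for more.

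**Figure D3:**
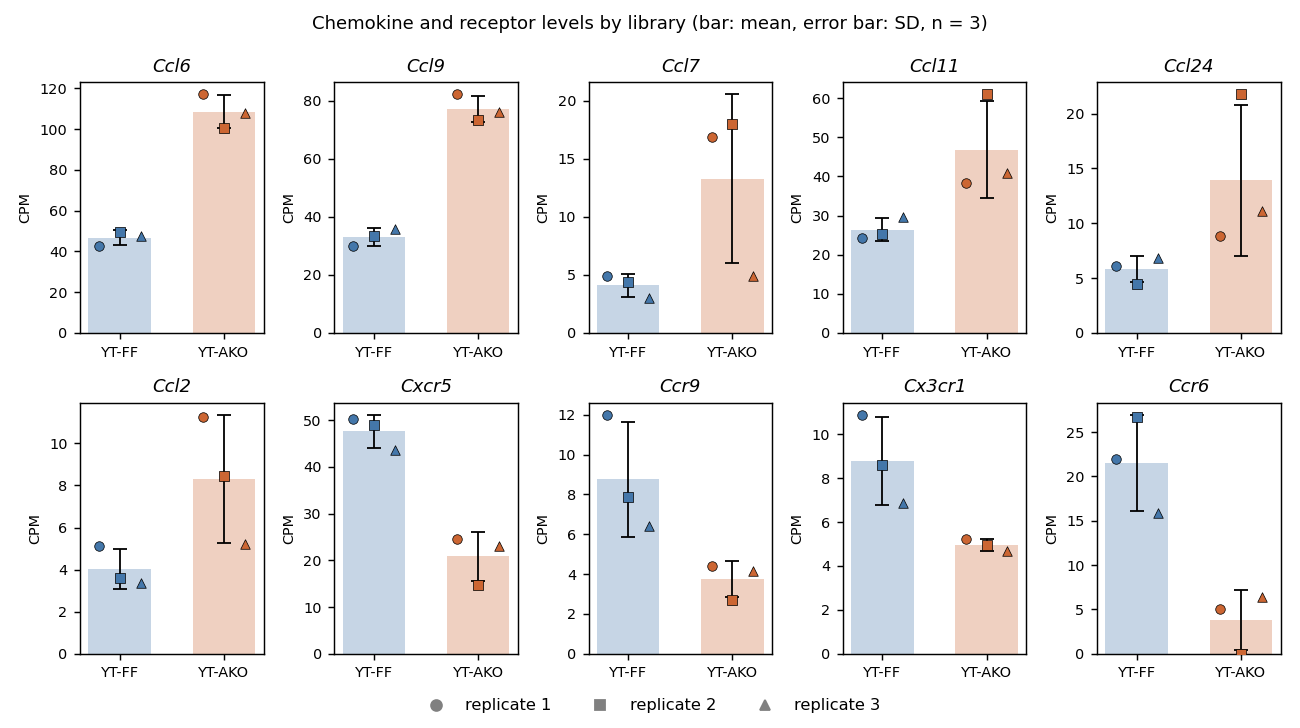
CPM (y axis) in each library, with circles, squares and triangles for replicates 1, 2 and 3, for the 8 called members, *Ccl2* and *Ccr6*. Bars are means and error bars SD of 3 libraries. *Ccl6* and *Ccl9* show tight groups far apart, whereas the YT-AKO values of *Ccl7*, *Ccl24* and *Ccr6* are spread.

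The CCR2 ligands *Ccl2*, *Ccl7* and *Ccl12* recruit monocytes. *Ccl7* counts were 115, 100 and 58 in YT-FF and 291, 306 and 83 in YT-AKO, or 4.90, 4.39 and 2.99 against 16.9, 18.1 and 4.91 CPM. YT-AKO 3 barely exceeded the highest control, and the other YT-AKO libraries stood well above. The log2 fold change was 1.70 (SE 0.478, edgeR adjusted p = 0.0427). It was 1.41 without YT-AKO 2, and the call held in 6 of 18 alternatives, being lost with the length correction (1.29, edgeR adjusted p = 0.0869) and without any library other than YT-AKO 3 (highest edgeR adjusted p 0.144).

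*Ccl2*, the best known monocyte attractant, had 5.12, 3.60 and 3.35 CPM in YT-FF and 11.3, 8.43 and 5.20 in YT-AKO. The groups did not overlap, but the lowest YT-AKO and highest YT-FF libraries nearly touched (log2 fold change 1.04, SE 0.340, edgeR adjusted p = 0.0610, DESeq2 0.0285). *Ccl12* had a log2 fold change of 0.93 (edgeR adjusted p = 0.138), with YT-AKO 3 below the controls. *Ccr2*, their receptor, had 43.4, 36.0 and 28.9 CPM against 21.9, 30.0 and 33.2, which overlap (log2 fold change -0.35, edgeR adjusted p = 0.266).

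*Ccl11* and *Ccl24* encode eotaxins, which attract eosinophils through CCR3. *Ccl11* was the fifth ligand per length, with 24.3, 25.2 and 29.7 CPM in YT-FF and 38.4, 61.0 and 41.0 in YT-AKO, a 1.77-fold difference (log2 fold change 0.83, SE 0.213, edgeR adjusted p = 0.0348). The groups did not overlap in CPM. In TPM they came together, at 86.3, 92.0 and 98.9 against 99.0, 98.8 and 103, and with TPM scaling the log2 fold change was 0.12 (edgeR adjusted p = 0.637). With the length correction it was 0.41 (edgeR adjusted p = 0.104).

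*Ccl24* had 6.09, 4.48 and 6.85 CPM in YT-FF and 8.84, 21.8 and 11.1 in YT-AKO (log2 fold change 1.26, SE 0.367, edgeR adjusted p = 0.0462). YT-AKO 2 was the highest library and gave much of the difference, which was 0.78 without it (edgeR adjusted p = 0.0423). With the length correction it was 0.83 (edgeR adjusted p = 0.0976), and limma-voom gave an adjusted p of 0.0551. The *Ccl11* and *Ccl24* calls were lost without any single YT-FF library (highest edgeR adjusted p 0.147 and 0.172), and that of *Ccl24* also without YT-AKO 3. *Ccr3*, with 0, 11 and 2 counts in YT-FF against 2, 0 and 1, was too scarce to test.

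Of 8 mast cell and eosinophil markers, 5 could be tested and 4 were higher, beside 12.6% of all genes. These were the mast cell protease genes *Mcpt4*, *Cma1*, *Tpsb2* and *Cpa3* (log2 fold changes 1.62, 1.71, 1.76 and 0.86). The other tested gene, *Kit*, went the other way (-0.42, edgeR adjusted p = 0.268). With the length correction 3 were called higher, beside 9.92%. The eosinophil genes *Siglecf*, *Epx* and *Prg2* had 0 to 56 counts and were not tested. The list summed to 42.7 to 53.8 CPM in YT-FF and 81.7 to 115 in YT-AKO. The part of these cells in the *Ccl11* and *Ccl24* values was not tested.

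The 10 tested ligands on chromosome 11 had log2 fold changes above 0, with a median of 0.99, and 4 were called higher, beside 12.6% of all genes. With the length correction their median was 0.66 and 2 were called, beside 9.92%. They fall mostly in tandem arrays: *Ccl2*, *Ccl7*, *Ccl11*, *Ccl12* and *Ccl8* lie 8259 to 38890 bases apart, and *Ccl5*, *Ccl9*, *Ccl6*, *Ccl3* and *Ccl4* 9246 to 54757. The 16 tested ligands elsewhere had a median of 0.08 and 1 call. With TPM scaling the chromosome 11 median was 0.33 and 0 were called (6 with DESeq2 in its own scaling).

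The most abundant ligands per length were *Ccl5*, *Cxcl13* and *Ccl8*, with mean TPM of 328, 280 and 230. *Ccl5*, which draws T cells and monocytes, had 103, 90.2 and 62.1 CPM in YT-FF and 87.3, 235 and 96.0 in YT-AKO. YT-AKO 2 alone was high (log2 fold change 0.71, edgeR adjusted p = 0.209, and 0.11 without that library). *Ccl8*, a CCR8 ligand in the mouse, had 28.3, 33.3 and 24.9 CPM against 58.7, 70.8 and 31.8, which overlap (log2 fold change 0.90, edgeR adjusted p = 0.0595, DESeq2 0.0241). *Ccr8* itself was low, at 13 to 30 counts.

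*Cxcl13* is made by stromal cells of lymphoid follicles and guides B cells through CXCR5. It had 96.9, 131 and 104 CPM in YT-FF and 115, 82.6 and 74.3 in YT-AKO, with overlap (log2 fold change -0.29, edgeR adjusted p = 0.339). *Cxcr5* itself fell. It had 50.2, 48.9 and 43.7 CPM in YT-FF and 24.6, 14.8 and 23.2 in YT-AKO, a clear gap between the groups (0.438-fold, log2 fold change -1.19, SE 0.215, edgeR adjusted p = 0.0185). The call held in 14 of 18 alternatives, including the length correction (-1.24) and TPM scaling (-1.79), and was lost without YT-FF 1 or YT-FF 2, where almost no gene was called and the log2 fold change stayed at -1.15 and -1.18 (highest edgeR adjusted p 0.111).

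B cell markers fell beside it. Of 10 markers, 7 were lower, beside 9.01% of all genes. Among them were *Ms4a1* (-1.17) and *Bank1* (-1.48), while *Cd79a* and *Cd79b* had -0.14 and -0.08 and were not called. The list summed to 1452 to 1755 CPM in YT-FF and 823 to 1142 in YT-AKO. *Cxcr5* as a percentage of that sum was 2.96, 2.79 and 3.01 in YT-FF and 2.90, 1.30 and 2.81 in YT-AKO. YT-AKO 1 and YT-AKO 3 were thus within or near the control range, and YT-AKO 2 was lower.

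*Ccr6* encodes the CCL20 receptor of B cells and T cells. Its counts were 515, 607 and 308 in YT-FF and 86, 0 and 108 in YT-AKO. No YT-AKO library reached the lowest control. The 0 in YT-AKO 2 allows up to 3 counts, 0.177 CPM, by counting error alone. Of 11290 genes with at least 80 counts in each of the other 5 libraries, 3 were at 0 in YT-AKO 2 (*Ccr6*, *Gm49759* and *Ptp4a1*), and no other library had such a gene. With that library the log2 fold change was -2.50 (SE 0.955, edgeR adjusted p = 0.0907), and without it -1.92 (edgeR adjusted p = 0.00252). As a percentage of the B cell markers *Ccr6* was 1.29, 1.52 and 1.09 in YT-FF and 0.589, 0 and 0.775 in YT-AKO. *Ccl20*, its ligand, had 0 to 4 counts and was not tested.

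**Figure D4:**
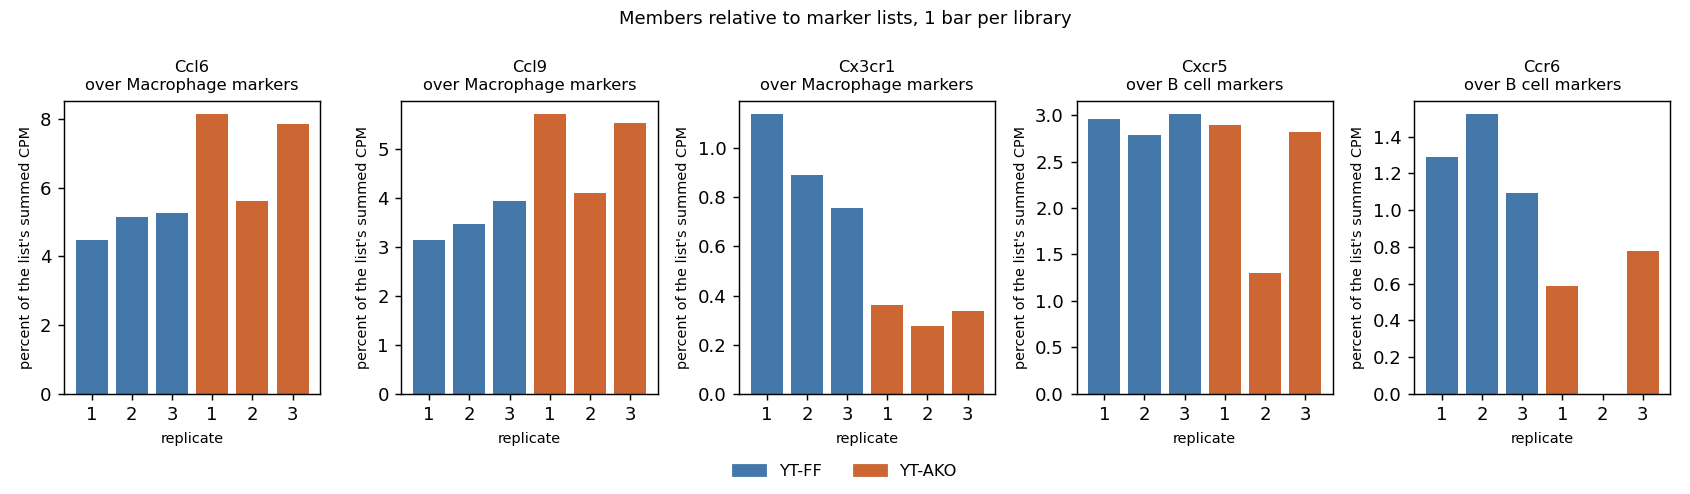
Level of 5 members as a percentage of the summed CPM of a marker list (y axis), with a bar for each library (blue YT-FF, orange YT-AKO, replicates 1 to 3). *Ccl6* and *Ccl9* are higher and *Cx3cr1* and *Ccr6* lower in every YT-AKO library, while *Cxcr5* stands apart in YT-AKO 2 (1.30%) from the rest (2.79% to 3.01%).

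*Cx3cr1*, the fractalkine receptor of resident macrophages and monocytes, had 10.9, 8.61 and 6.85 CPM in YT-FF and 5.23, 4.95 and 4.67 in YT-AKO, without overlap (log2 fold change -0.83, SE 0.246, edgeR adjusted p = 0.0490). The call held in 7 of 18 alternatives. It was lost with the length correction (-0.72, edgeR adjusted p = 0.0819), without any YT-FF library, and without YT-AKO 1 or YT-AKO 3 (highest edgeR adjusted p 0.189). As a percentage of the summed CPM of the macrophage markers it was 1.14, 0.891 and 0.755 in YT-FF and 0.363, 0.276 and 0.339 in YT-AKO. Over the 12 markers other than the C1q genes it was 1.59, 1.23 and 1.10 against 0.640, 0.665 and 0.637, also without overlap. Of all 15 macrophage markers, 10 had a log2 fold change above 0 and 5 below, and 0 were called lower, beside 9.01% of all genes. *Itgax*, *Timd4* and *Cd163* were among those 5, at -0.47, -0.25 and -0.17. *Cx3cl1*, its ligand, had 3.71 to 6.28 CPM and a log2 fold change of -0.00 (SE 0.281).

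*Ccr9* guides lymphocytes to the gut and thymus. It had 12.0, 7.87 and 6.44 CPM in YT-FF and 4.42, 2.71 and 4.14 in YT-AKO, without overlap (0.429-fold, log2 fold change -1.22, SE 0.324, edgeR adjusted p = 0.0372). The length correction gave -0.78 (edgeR adjusted p = 0.0916), and the call was also lost without any YT-FF library or without YT-AKO 3 (highest edgeR adjusted p 0.150). Other genes overlap 21.5% of its exons. *Ccl25*, its ligand, had 12.9, 10.3 and 11.0 CPM against 7.50, 8.32 and 7.27, which do not overlap but did not pass the test (log2 fold change -0.57, edgeR adjusted p = 0.0715).

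*Ccr7* brings dendritic and naive T cells to lymph nodes and was the most abundant receptor per length (mean TPM 128). It had 89.8, 82.4 and 67.3 CPM in YT-FF and 75.3, 128 and 62.5 in YT-AKO (log2 fold change 0.15, edgeR adjusted p = 0.702), with TPM scaling turning the sign (-0.59). Its ligand genes stood out in YT-AKO 2. *Ccl19* had 526 counts there and 6 to 46 in the other 5 libraries, and *Ccl21a* 144 against 1 to 15. The log2 fold change of *Ccl19* was 3.52 (SE 1.54, edgeR adjusted p = 0.127), and -0.03 without that library. Near copies share 52.0% of the 50-base words of *Ccl19* transcripts and 71.6% of those of *Ccl21a*, so both counts are uncertain. The 13 T cell markers were mixed in that library. They summed to 1366 CPM there against 624 to 983 elsewhere, and *Cd3d* had 2806 counts against 545 to 839. *Cd4* and *Cd28* were at their lowest there, at 38.3 and 9.38 CPM.

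*Cxcr4*, the CXCL12 receptor that retains leukocytes in tissues, had 53.8, 55.1 and 77.8 CPM in YT-FF and 58.9, 33.6 and 25.2 in YT-AKO, with overlap (log2 fold change -0.67, edgeR adjusted p = 0.154). *Cxcl12*, made by stromal cells, had 208, 204 and 200 CPM against 180, 188 and 147, without overlap (log2 fold change -0.25, edgeR adjusted p = 0.267). Its log2 fold change was 0.13 with the length correction and -0.92 with TPM scaling (edgeR adjusted p = 0.651 and 0.0299). *Ackr3*, which takes up CXCL12, had 31.2, 53.0 and 46.4 CPM against 59.2, 62.8 and 68.4, also without overlap (log2 fold change 0.54, SE 0.212, edgeR adjusted p = 0.0957). With TPM scaling *Ackr3* was at -0.11. *Ackr1*, the atypical receptor of venules, had a log2 fold change of 0.71 (edgeR adjusted p = 0.116), and *Cadm3* overlaps 25.7% of its exons.

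The remaining members did not pass the test or were too scarce for it. The CXCR3 ligands *Cxcl9*, *Cxcl10* and *Cxcl11*, which interferon induces, had log2 fold changes of 0.16, 0.80 and -0.53, and their receptor *Cxcr3* -0.14. None of these passed the test (edgeR adjusted p 0.198 to 0.714, 0 at an unadjusted p under 0.05 for the ligands). *Cxcr2*, the neutrophil receptor, had 8.01, 7.51 and 5.82 CPM in YT-FF and 4.94, 1.95 and 4.20 in YT-AKO, without overlap (log2 fold change -0.94, edgeR adjusted p = 0.0931). The 14 members that failed the filter included *Ccl3*, *Cxcl2*, *Cxcl5* and *Cxcr1*, and *Ccl21b* and *Cxcl15* were at 0 in every library.

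Signaling components downstream of the receptors were taken from a list of 34 genes, all tested. *Rgs2*, which shortens G protein signals, rose (log2 fold change 1.43), as did the G protein subunit gene *Gnb2* (0.83). There were 7 lower genes: the PI3K gene *Pik3cg* (-1.18), the Rac activators *Elmo1* (-1.06), *Dock2* (-0.89) and *Prex1* (-0.89), the phospholipase gene *Plcb2* (-0.78), the kinase gene *Lyn* (-0.66) and *Grk6* (-0.60). The list's median was -0.28, beside -0.02 over all genes, and DESeq2 called 2 higher and 9 lower. With the length correction, the 7 lower genes stood at -0.80, -0.56, -0.39, -0.44, -0.49, -0.60 and -0.52, in the order given. That fit called 2 higher and 4 lower, against 9.92% and 4.3% of all genes. In the reported fit the shares of all genes were 12.6% higher and 9.01% lower. Without YT-AKO 2, 11 were lower, against 14.0% of all genes, and 0 were called in the fits without YT-FF 1 or YT-FF 2, which called 0 and 2 genes in all.

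Among 12 tested chemokine-like genes outside the symbol rule, 3 were higher and 2 lower, beside 12.6% and 9.01% of all genes. *Pf4*, the platelet and macrophage CXC chemokine CXCL4, had 12.9, 16.8 and 14.7 CPM in YT-FF and 38.5, 103 and 45.0 in YT-AKO (log2 fold change 2.07, SE 0.376, edgeR adjusted p = 0.0186, and 1.49 without YT-AKO 2). *Mif*, a cytokine that binds CXCR2 and CXCR4, was higher (1.40), as was *Cmtm4* (0.52). *Cklf* (-0.97) and *Dpp4* (-0.79), whose product is a protease that trims chemokines, were lower. Of 16 tested genes of NF-kB and interferon signaling, *Rela* (0.51) and *Ltbr* (0.92) were higher, a share near the 12.6% of all genes.

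The motif searches over the promoters of the family are given as shares. RefSeq windows were found for 46 of the 61 members, 55 windows in all. The NF-kB motif was in 10.9% of these and in 1.63% of all 32851 promoters, the wider form in 16.4% and 5.56%, and GGAATG, the TEAD motif, in 16.4% and 14.7%. The members with the stricter NF-kB match were *Ccl20*, *Ccr3*, *Cxcl1*, *Cxcl2*, *Cxcl3* and *Ccl9*, of which only *Cxcl1* and *Ccl9* had counts enough to test. *Cxcl1* had a log2 fold change of -0.09. The interferon motif was in 5.45% and 3.44%, C/EBP in 12.7% and 10.8%, and PU.1 in 32.7% and 28.3%. A match describes the letters of a window and nothing about binding.

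**Figure D5:**
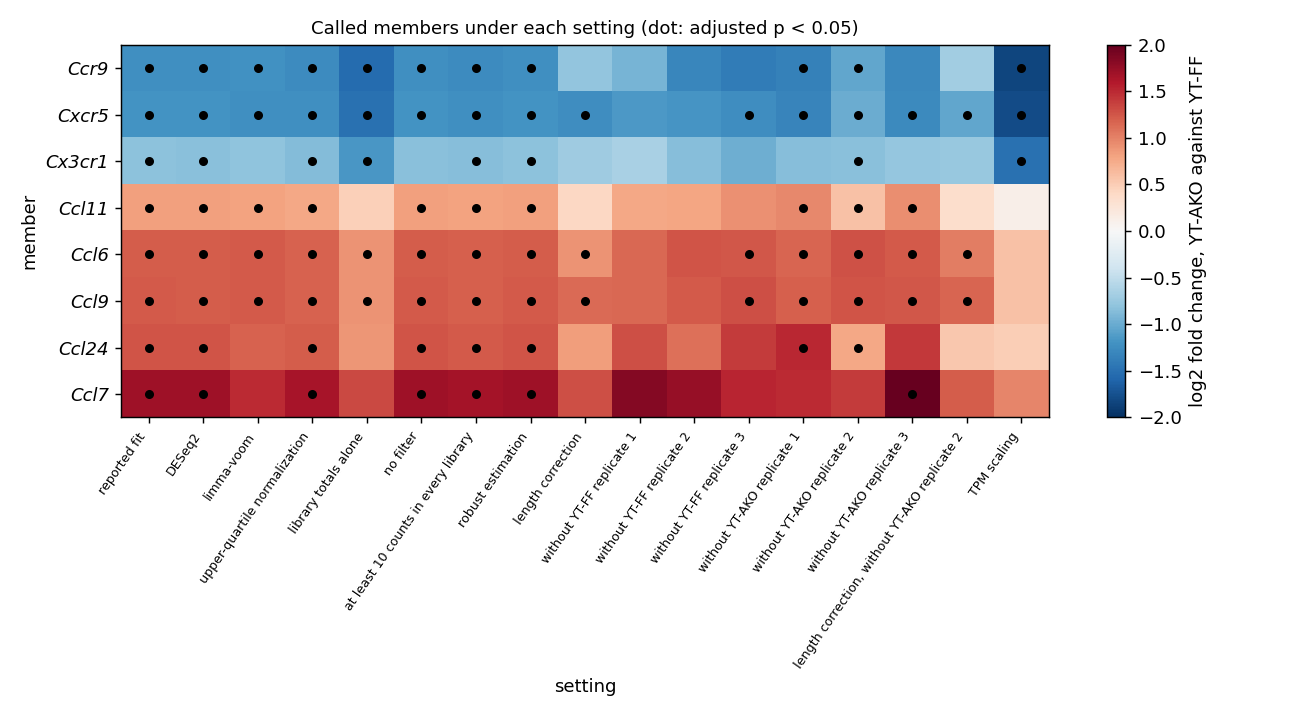
Log2 fold change (colour) of the 8 called members (rows) in the reported fit and in the alternative fits without a block (columns), with a dot where the adjusted p was under 0.05. *Ccl6*, *Ccl9* and *Cxcr5* keep their dots in most columns, and the columns without YT-FF replicate 1 or 2 have none.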

How the data were processed

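RNA-seq (paired ends) covered the scWAT of 6 mice, 3 a group. The authors aligned the reads with HISAT2 (mm10) and used featureCounts 2.0.1 with GENCODE M25 exons, and the deposited values are its raw counts. Strand was ignored, and multi-mapping or ambiguous fragments were dropped. Total counts set the precision: 3 counts correspond to 0.128 to 0.177 CPM, for counting error only. Groups came from the genotype labels. By the methods of the study the samples are separate mice, so p-values measure the spread between 3 animals a group.

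Counts were analysed in R 4.3.3 with edgeR 4.0.16 (TMM, filterByExpr with a minimum count of 10 and a minimum total of 15, quasi-likelihood test) and Benjamini-Hochberg adjustment over 16807 genes. DESeq2 1.42.0, limma-voom (limma 3.58.1), other scalings and filters, a length correction (spline with 6 degrees of freedom), a replicate block and each library left out were alternatives, and TPM scaling was added after the data were seen. Of 55401 identifiers, 55141 had symbols. The tests were checked on simulated counts.

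The members and lists were chosen with earlier results of these data known. Members named are those called, those without overlap and a log2 fold change beyond 1, the 5 ligands and 5 receptors with the highest mean TPM, and their partners; other members named were chosen after their values were seen. Promoters are from RefSeq. Some genes are not reported here by name.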

Additional observations from a re-analysis of the deposited data

How the results depend on the processing

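The counts of members called, 5 higher and 3 lower, depended on the processing. Other values were 9 higher with DESeq2, 3 with limma-voom, 10 with no filter and 2 with library totals alone. They were 2 with the length correction, 2 with the length correction without YT-AKO 2 and 0 with TPM scaling. Of all genes, 2592 of 30027 were higher with no filter, and 2647 of 17350 with the length correction without YT-AKO 2. The lower count was 6 with library totals alone, 1 with the length correction and 9 with TPM scaling. Leaving out 1 library gave 0 to 8 higher and 0 to 5 lower. Of the signaling components, 2 higher and 7 lower, library totals alone gave 1 and 14, the length correction 4 lower, TPM scaling 0 and 17, and the length correction without YT-AKO 2 gave 5 higher. Leaving out 1 library gave 0 to 3 higher and 0 to 11 lower. The members' median log2 fold change, -0.00, was -0.32 with library totals alone and -0.68 with TPM scaling, and -0.0395 to 0.154 with 1 library left out. The cause of these changes was not tested. Over the 17 members named by rule, 229 of 305 values kept their side of the threshold, 65 lost a call and 11 gained one, and none that was called changed sign.

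The replicate numbers did not pair the samples: the deviations of same-numbered samples correlated at 0.12, -0.114 and -0.0899, and not every sample correlated best with its own number. With the number as a replicate block, 0 members were called higher and 0 lower (13 at an unadjusted p under 0.05), and 0 signaling components in either direction, with and without the length correction. Of all 16807 genes, 24 were higher and 9 lower in this fit, and 53 and 21 with the length correction. An unadjusted edgeR p under 0.05 was reached by 5806 of all genes, and by 5060 with the length correction. Ccl6, Ccl9 and Cxcr5 had edgeR adjusted p of 0.0578 to 0.0687 in these 2 fits.

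With 3 libraries a group, an exact permutation test cannot go below p = 0.1. The 14 members that failed the filter were not tested by the reported fit. Of these, Ccl21a was called with DESeq2 (log2 fold change 4.89, adjusted p = 0.000268) and with no filter (edgeR adjusted p = 0.00332), with most of its counts in YT-AKO 2. Transcripts of Ccl19, Ccl21a and Ccl27a share words with near copies, and multi-mapping fragments were dropped. Unstranded counting cannot separate overlapping genes on opposite strands.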
